A study of Mus musculus with 5 samples.

Results

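The bone sub-line of NT2.5 mouse mammary tumour cells was compared with the parental cells it came from, on 3 of the 5 arrays of the study. NT2.5 was grown from a mammary tumour of a mouse transgenic for the rat neu oncogene driven by the promoter of mouse mammary tumour virus, which is active in mammary epithelium. The bone sub-line at passage 3, an early stage, and at passage 6, the final stage, is labelled with a preference for bone as the site of metastasis, and the parental cells, called wild type NT2.5 in the labels, with bone, liver and lung. The remaining 2 arrays hold a liver sub-line at passages 1 and 3, whose values are given beside those of some genes. All 5 are single samples of total RNA on a 1-colour Affymetrix array that reads each gene with 1 or more sets of short probes. Both bone arrays are passages of 1 bone sub-line, the labels do not say whether it is 1 clone, and they name no treatment, age or further allele that separates the groups.

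Breast cancers often spread to bone, where tumour cells meet osteoblasts, which build bone and make signals for osteoclasts, and osteoclasts, which resorb it. The balance between the ligand Tnfsf11 (RANKL) and its soluble decoy receptor Tnfrsf11b (osteoprotegerin) sets osteoclast formation. Tumour cells can act on it through parathyroid hormone-related protein, interleukins, colony-stimulating factors and chemokines, and bone matrix releases growth factors of the TGF-beta family as it is resorbed.

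Values are the deposited linear intensities, compared as log2(intensity + 16). The constant of 16 damps dim probe sets, so it understates the change of dim genes, and every fold below is on that scale. A gene was called where it was at least 2-fold apart from parental, and called in both passages where this held, in the same direction, at passage 3 and at passage 6. The 1 parental array has no spread of its own and is shared by both differences, so no test was made and no p-value is given. A deviation of the parental array would appear in both passages alike. With so few arrays the precision of each value is low.

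Of 18193 genes on the array, 12609 reached an intensity of 25.1 on at least 1 of the 5 arrays and were compared. The median of all probe sets was 26.4 and 21.9 at bone passages 3 and 6, against 26.1 in parental cells, and the trimmed mean was 150 on each array. The ratio of 5′ to 3′ signal, a gauge of RNA integrity, was 0.842 and 0.874 for beta-actin at bone passages 3 and 6, against 0.845 in parental cells. Gene by gene, the SD of the difference was 0.49 for bone passage 3 and 0.50 for bone passage 6 against parental, and 0.39 between the bone passages.

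The bone arrays carried the marks of the mammary epithelial line. Keratin 8 (Krt8) had intensities of 3874 and 4829 at bone passages 3 and 6, against 4150 in parental cells. The adhesion molecule Epcam had 4262 and 4384 at bone passages 3 and 6, against 4015 in parental cells, and E-cadherin (Cdh1) had 3511 and 3282 at these passages, against 3365 in parental cells. Erbb2, the mouse counterpart of the neu receptor, had 342 and 320 at bone passages 3 and 6, against 312 in parental cells, and none of these 4 genes was past 2-fold in either passage. Whether its probes also read the rat transgene was not tested. The mesenchymal filament gene vimentin (Vim) had 3525 and 1818 at bone passages 3 and 6, against 5740 in parental cells, and was past 2-fold at passage 6 alone.

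Markers of other cells that bone tissue could carry along were summed over each list. Of 6 osteoblast markers on the array, 1 reached an intensity of 100 on each of the 3 arrays, the phosphatase Alpl, and the list summed to 542 and 463 at bone passages 3 and 6, against 571 in parental cells. The 9 osteoclast markers summed to 679 and 602 at bone passages 3 and 6, against 602 in parental cells, led by Acp5 and Nfatc1. The sum of 14 macrophage markers was 876 and 1267 at bone passages 3 and 6, against 647 in parental cells. Members at or above the filter went the other way, at 7 and 4 at bone passages 3 and 6, against 8 in parental cells. Cd14 was the member that reached 100 on all 3 arrays, and Cd68 reached it at bone passage 3 alone of the 3. Csf1r, the receptor of macrophage colony-stimulating factor, reached 100 at bone passage 6 alone of the 3, with 89.3 and 107.3 at bone passages 3 and 6, against 67.6 in parental cells. For 9 neutrophil markers, led by S100a8 and Ltf, the sum was 1544 and 3201 at the bone passages, against 4481 in parental cells. The 6 T cell markers stayed at 95.5 and 101.0 at bone passages 3 and 6, against 103.6 in parental cells, and the 10 fibroblast markers at 193.0 and 166.9 at the bone passages, against 322.8 in parental cells. The 6 B cell markers summed to 410 and 208 at bone passages 3 and 6, against 168 in parental cells, and Ighm, the heavy chain of IgM, was the member that reached 100 on both bone arrays, at 332 and 154.5, against 90.1 in parental cells. Erythroid markers (5) summed to 156.5 and 120.5 at bone passages 3 and 6, against 174.8 in parental cells, and adipocyte markers (6) to 24.5 and 36.3 at the bone passages, against 87.2 in parental cells. Endothelial markers (9) summed to 284 and 200 at bone passages 3 and 6, against 346 in parental cells, and no marker of any list was at 0. Of 7 hepatocyte markers, 1 was above the filter on the bone arrays, Arg1, which other cells use as well. The part of such cells in the differences was not tested, and fewer cells of a type cannot be told apart from less RNA per cell.

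In bone passage 3, 307 genes (2.43%) were at least 2-fold higher and 243 (1.93%) at least 2-fold lower than in parental cells. In bone passage 6, 185 genes (1.47%) were higher and 400 (3.17%) lower. Both passages shared 126 genes that were higher (0.999%) and 144 that were lower (1.14%), and 6 genes were past 2-fold in opposite directions. The shares of 0.999% and 1.14% are the background for the counts of called genes in the lists below. With a difference of 4-fold or more at each passage, 29 genes were higher and 27 lower, and at 8-fold 10 were higher and 3 lower. The counts depend on the weight of dim genes: 238 were higher and 290 lower in both passages with a constant of 1 in place of 16, and 47 and 52 with a constant of 64. The plot of the differences at passage 6 over those at passage 3 shows these genes at its upper right and lower left.

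**Figure D1:**
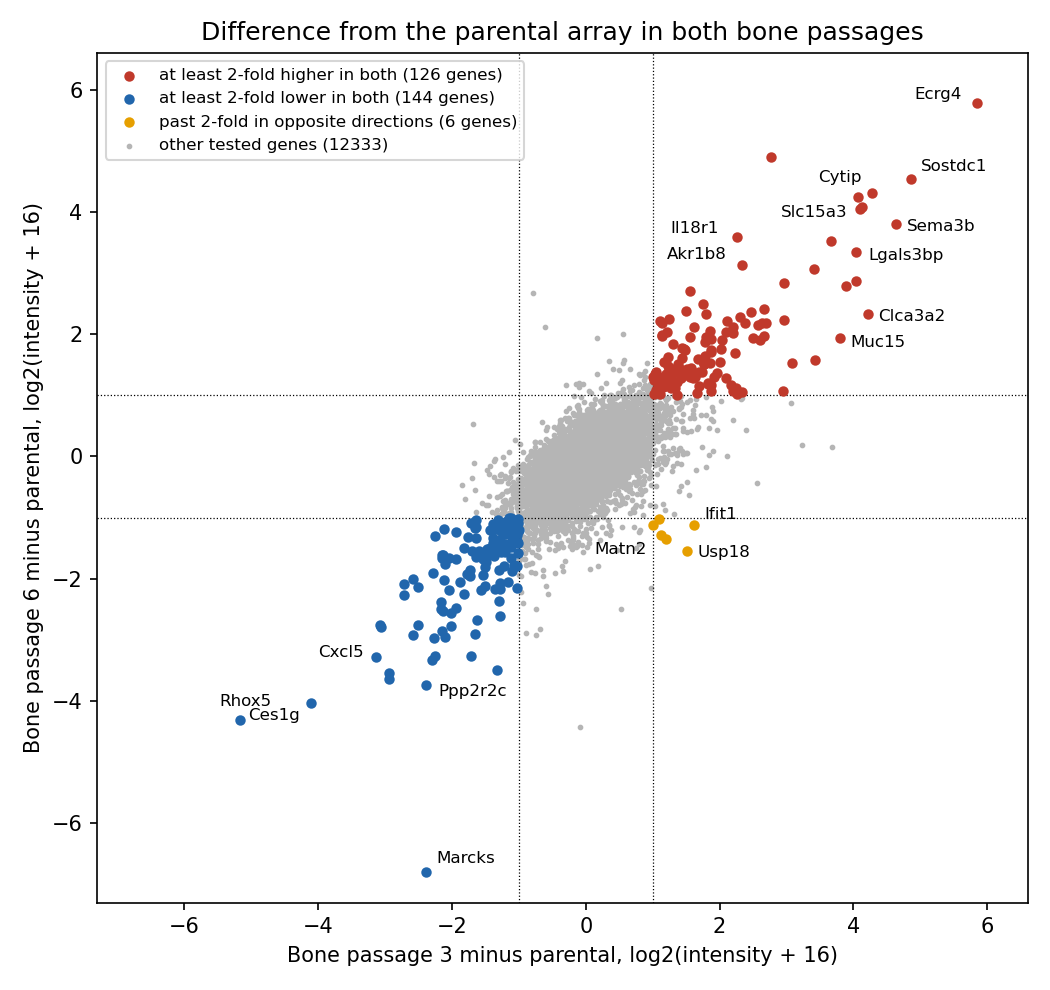
Each point is 1 of 12609 genes, with its log2 difference from the parental array at bone passage 3 (horizontal axis) and bone passage 6 (vertical axis); both axes share the parental array. Red points are the 126 genes at least 2-fold higher in both passages, blue the 144 lower in both, orange the 6 that crossed, and dotted lines mark a 2-fold difference.

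Other probe sets of the same genes, which read the same RNA at other places, mostly moved alike. Of 61 further probe sets on 37 genes that were higher in both passages, 52 (85.2%) were above parental in both and 31 (50.8%) were past 2-fold in both. Over all genes tested, 29.7% of 10015 further probe sets lay above parental in both passages and 0.689% were past 2-fold. Of 89 further probe sets on 58 genes that were lower, 81 (91%) were below parental in both passages and 39 (43.8%) were past 2-fold, beside 39.9% and 0.929% over all genes. Genes dim on 1 side were common: 67 of the 126 higher genes were under the filter in parental cells, and 67 of the 144 lower genes were under it on both bone arrays.

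Promoter letters of the called genes differed from those of the array as a whole. RefSeq promoter windows (assembly GRCm38.p6) of 250 bases before and 50 after the start were matched by symbol for 94 of the 126 higher genes, 109 of the 144 lower genes and 10180 genes tested. A ratio of observed to expected CpG of 0.6 or more, the letter content of a CpG island, was held by 27 of the 94 higher genes (28.7%) and 58 of the 109 lower genes (53.2%), against 7064 of all 10180 (69.4%). The windows of Ecrg4, the gene with the largest increase, and Fam20c, a gene that fell, are shown up to the start as examples of the poor and the rich kind, chosen after their values were seen, with each CpG in capitals.
Ecrg4, chr1:43730352-43730601, plus strand: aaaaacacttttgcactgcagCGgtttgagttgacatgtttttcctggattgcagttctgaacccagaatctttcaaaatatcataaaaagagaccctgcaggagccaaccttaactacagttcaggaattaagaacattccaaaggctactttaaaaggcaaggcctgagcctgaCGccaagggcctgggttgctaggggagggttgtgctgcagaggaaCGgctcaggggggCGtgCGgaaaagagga
Fam20c, chr5:138754831-138755080, plus strand: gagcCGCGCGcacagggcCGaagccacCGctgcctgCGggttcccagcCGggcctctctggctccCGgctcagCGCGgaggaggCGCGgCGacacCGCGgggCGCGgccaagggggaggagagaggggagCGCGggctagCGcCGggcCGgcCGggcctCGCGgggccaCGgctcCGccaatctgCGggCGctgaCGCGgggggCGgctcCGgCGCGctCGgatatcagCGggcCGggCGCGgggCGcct
The 250 bases shown hold 5 CpG in Ecrg4 and 41 in Fam20c. Neither DNA methylation nor binding of any factor was measured.

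The 2 genes with the largest increase, taken as the smaller of both differences, encode secreted proteins. Ecrg4, which encodes the secreted precursor augurin, had intensities of 6117 and 5801 at bone passages 3 and 6, against 90.3 in parental cells, or 57.7-fold and 54.7-fold higher. Both bone values lay among the brighter signals of the arrays, the parental one among the dim, and 2 further probe sets of the gene were higher by 4.94 and 5.91 (log2) at passage 3. The liver sub-line had 5663 and 4948 at passages 1 and 3. Sostdc1, a secreted protein that blocks BMP and Wnt ligands, had 2456 and 1962 at bone passages 3 and 6, against 69.3 in parental cells (29.0-fold and 23.2-fold). Its 1133 and 956 at liver passages 1 and 3 were also above parental. Sostdc1 was the only called member of 15 tested Wnt antagonists and modulators.

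Other regulators of the same pathways were called in small numbers. Fstl3, a secreted binder of activin, had 143 and 134 at bone passages 3 and 6, against 33.9 in parental cells. Id4, a helix-loop-helix inhibitor and BMP target, had 1978 and 1283 at the bone passages, against 509.9 in parental cells. These were the 2 called of 33 BMP, TGF-beta and activin genes, with 0 lower in both. Wnt10a, a secreted Wnt ligand, had 139 and 245 at bone passages 3 and 6, against 30.2 in parental cells, and was the only gene called in both passages among 31 Wnt ligands, receptors and targets. Medians of the 2 pathway lists were 0.02 and -0.20 for BMP and TGF-beta genes and 0.10 and -0.17 for Wnt genes at passages 3 and 6. The medians of all genes were 0.01 and -0.04.

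Axon guidance proteins, which also steer the migration of tumour and endothelial cells, were called higher in 3 cases of 53 genes tested, with 0 lower. By sign alone, 18 lay above parental in both passages and 26 below, and the list medians were -0.16 and -0.16 (log2) at bone passages 3 and 6. Sema3b, a secreted semaphorin, had 427 and 232 at bone passages 3 and 6, against 1.8 in parental cells. Its probe sets all lay on 1 side, since 2 others were higher by 1.99 to 3.43 at passage 3 and by 1.61 to 2.71 at passage 6 (log2). Sema7a, a membrane-anchored semaphorin, had 315 and 285 at the bone passages, against 74.4 in parental cells, though a second probe set was above parental by 0.42 and 0.88 only. The ephrin receptor Epha1 had 290 and 314 at bone passages 3 and 6, against 126.8 in parental cells, and its 2 other probe sets did not reach 2-fold.

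Matrix proteins moved in both directions. Sparcl1, a secreted relative of osteonectin, had 285 and 119 at bone passages 3 and 6, against 2.4 in parental cells. Crispld2, a secreted glycoprotein, had 2455 and 2331 at the bone passages, against 524.0 in parental cells, with both other probe sets past 2-fold. Nephronectin (Npnt), a ligand of integrin alpha8 beta1, had 120 and 233 at bone passages 3 and 6, against 31.8 in parental cells, while its 3 other probe sets spread between -0.16 and 1.65 (log2) at passage 3. Fndc1, a protein with fibronectin domains, was lower, at 41.1 and 19.4 at the bone passages, against 424.2 in parental cells. A second probe set of Fndc1 was at -0.83 and -1.01 (log2). These 4 were the called members of 51 collagens, laminins and matrix glycoproteins, of which 3 were higher and 1 lower. Emid1, an EMI-domain matrix protein outside that list, had 1004 and 600 at bone passages 3 and 6, against 115.2 in parental cells. Integrins showed no gene past 2-fold in either passage among 15 tested.

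Extl1 and Hpse2, genes of heparan sulfate, the matrix sugar that holds growth factors, were among those with the largest increase. Heparan sulfate genes were not counted as a list, so no share of them is given. Extl1, a glycosyltransferase of the exostosin family, had 246 and 168 at bone passages 3 and 6, against 24.5 in parental cells. Its 132.5 and 55.8 at liver passages 1 and 3 were also above parental. Hpse2, a heparanase relative without the enzyme's activity, had 106 and 74.3 at the bone passages, against 3.8 in parental cells. At liver passages 1 and 3 Hpse2 had 11.3 and 8.2, close to parental. Pamr1, a secreted protein with a peptidase-like domain, had 102 and 83.4 at bone passages 3 and 6, against 2.7 in parental cells. Lgals3bp, a secreted galectin ligand, had 796 and 487 at the bone passages, against 33.5 in parental cells.

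Protease inhibitors split between both directions, with 2 of 22 higher and 3 lower in both passages, beside 0.999% and 1.14% of all genes. Slpi, a secreted inhibitor of leukocyte elastase, had 4273 and 4720 at bone passages 3 and 6, against 1640 in parental cells. Cystatin E/M (Cst6), an inhibitor of cathepsins, had 399 and 259 at the bone passages, against 91.1 in parental cells. Serpinf1, the antiangiogenic factor PEDF, had 176 and 221 at bone passages 3 and 6, against 1589 in parental cells, or 8.38-fold and 6.79-fold lower. Its neighbour on the chromosome Serpinf2, the plasmin inhibitor alpha-2-antiplasmin, had 8.4 and 6.1 at the bone passages, against 54.9 in parental cells. Timp4, an inhibitor of matrix metalloproteinases, had 5.0 and 3.4 at bone passages 3 and 6, against 26.8 in parental cells, so that its bone values were under the filter.

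Hormone and mammary lineage genes were higher in a few cases. Oestrogen receptor alpha (Esr1) had 106 and 97.3 at bone passages 3 and 6, against 6.0 in parental cells. One of its 2 other probe sets was above parental by 1.49 and 1.18 and the other by 0.32 and 0.12 (log2). Stat5a, which carries the prolactin signal, had 639 and 433 at the bone passages, against 187.0 in parental cells. A second probe set of Stat5a was above parental by 1.58 and 0.87 (log2). Esr1 and Stat5a were the 2 called of 17 luminal mammary genes, with 0 lower in both. Hsd17b2, which oxidises oestradiol to the weaker oestrone, had 87.3 and 60.5 at bone passages 3 and 6, against 1.3 in parental cells. Among 8 milk protein genes, the casein Csn1s1 was lower, at 4.0 and 1.7 at the bone passages against 57.2 in parental cells. The mucin of the milk fat globule, Muc15, was higher, at 1039 and 275 at bone passages 3 and 6, against 60.2 in parental cells.

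**Figure D2:**
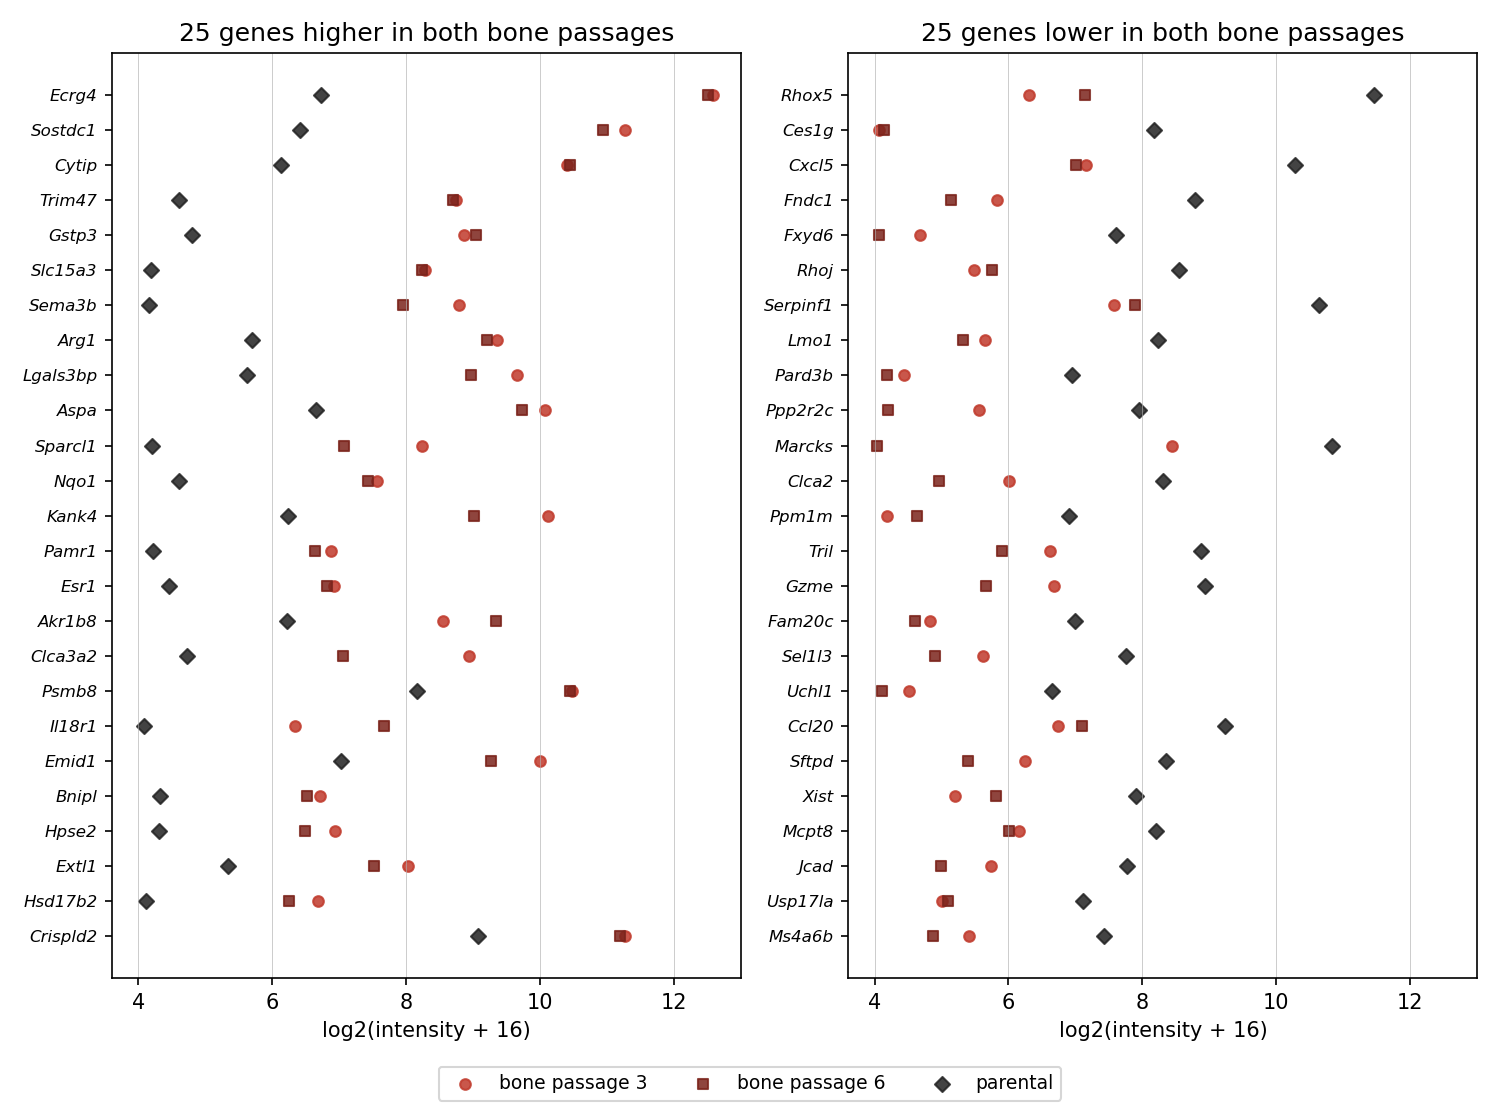
Points give log2(intensity + 16) at bone passage 3 (circles), bone passage 6 (squares) and in parental cells (diamonds) for the 25 genes per direction with the largest smaller-of-2 difference. In the left panel both bone points lie right of the parental one, and in the right panel left of it; Marcks shows the widest gap between the 2 bone passages.

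Of 35 xenobiotic and carbonyl enzymes, 5 were called higher and 1 lower in both passages, beside 0.999% and 1.14% of all genes. By sign alone, 17 lay above parental in both and 13 below, with list medians of 0.26 and 0.02 (log2) at bone passages 3 and 6. The aldo-keto reductase Akr1b8 had 360 and 637 at bone passages 3 and 6, against 58.9 in parental cells. Aspartoacylase (Aspa), which splits N-acetylaspartate, had 1063 and 834 at the bone passages, against 85.1 in parental cells. Akr1c13, a reductase outside the naming rule that completes the 5 with Hsd17b2 and Aldh3a1, had 23.6 and 66.1 at bone passages 3 and 6, against 2.0 in parental cells. The carboxylesterase Ces1g, which hydrolyses esters and lipids, was the lower member, at 0.8 and 1.6 at bone passages 3 and 6, against 273.2 in parental cells. All of its signal was thus under the filter on both bone arrays, and liver passages 1 and 3 had 2.8 and 31.0.

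Targets of NRF2, the factor that answers oxidative stress, were higher in 3 cases of 37, with 0 lower in both. Over all genes, 0.999% were higher and 1.14% lower in both. Gstp3, a pi-class glutathione transferase, had 453 and 513 at bone passages 3 and 6, against 11.9 in parental cells (16.8-fold and 18.9-fold). The quinone reductase Nqo1 had 174 and 157 at the bone passages, against 8.3 in parental cells, and 18.4 and 14.3 at liver passages 1 and 3. The aldehyde dehydrogenase Aldh3a1 had 118 and 110 at bone passages 3 and 6, against 30.8 in parental cells. The list as a whole had medians of 0.09 and 0.17 at passages 3 and 6, beside 0.01 and -0.04 over all genes. The letters TGACNNNGC, an antioxidant response element on either strand, stood in 10.6% of the promoter windows of higher genes and 13.8% of those of lower genes, against 14.6% of all windows. These shares are of all called genes with a window, not of the NRF2 list. The windows of Gstp3 and Nqo1 did not hold TGACNNNGC, and bases outside the windows were not searched. The AP-1 letters TGANTCA stood in 4.26% of the windows of higher genes and 11.9% of those of lower genes, against 5.24% of all.

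Further enzymes and transporters had large differences. Arginase 1 (Arg1), which splits arginine into ornithine and urea, had 640 and 578 at bone passages 3 and 6, against 35.9 in parental cells. Slc15a3, a lysosomal transporter of histidine and peptides, had 297 and 285 at the bone passages, against 2.2 in parental cells (17.2-fold and 16.5-fold), and 12.1 and 4.7 at liver passages 1 and 3. The desaturase Scd1, which makes monounsaturated fatty acids, had 2398 and 1647 at bone passages 3 and 6, against 500.8 in parental cells, and was the 1 called of 35 sterol and fatty acid synthesis genes. Lipases diverged, as endothelial lipase (Lipg) had 140 and 260 at the bone passages, against 54.7 in parental cells. Lipoprotein lipase (Lpl) had 5.3 and 13 at bone passages 3 and 6, both under the filter, against 56.0 in parental cells. A second probe set of Lpl was at -0.464 and -1.055 (log2). The lipocalin Apod had 144 and 27.7 at bone passages 3 and 6, against 4.7 in parental cells. Clca3a2, a chloride channel accessory protein, had 476 and 117 at the bone passages, against 10.5 in parental cells. A second probe set of Clca3a2 was above parental by 2.76 and 0.88 (log2). Clca2, a relative of Clca3a2, moved the other way, at 48.6 and 15.3 at bone passages 3 and 6, against 300.5 in parental cells.

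Intracellular regulators were also among the higher genes. Cytip, a scaffold for cytohesins known from leukocytes, had 1343 and 1379 at bone passages 3 and 6, against 54.1 in parental cells. The ubiquitin ligase Trim47 had 413 and 401 at the bone passages, against 8.5 in parental cells. Kank4, an ankyrin-repeat protein, had 1097 and 502 at bone passages 3 and 6, against 59.3 in parental cells, and 24.6 and 34.1 at liver passages 1 and 3. Cyclin D2 (Ccnd2), which drives entry into the cell cycle, had 786 and 688 at the bone passages, against 157.9 in parental cells. All 6 of its other probe sets lay above parental, by 1.22 to 1.96 at passage 3 and 0.97 to 1.94 at passage 6 (log2). It was the 1 called of 50 cell cycle and mitosis genes, whose median was -0.38 at passage 3 and 0.08 at passage 6. The insulin signalling adapter Irs2 had 73.5 and 25 at bone passages 3 and 6, against 3.5 in parental cells, whereas the growth factor Igf1 was lower, at 12.0 and 1.3 at the bone passages, against 43.1 in parental cells.

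Class I antigen presentation genes lay above parental in both passages in 13 of 16 cases, where 4218 of all 12609 tested genes did. The immunoproteasome subunits Psmb8 and Psmb9, which trim peptides for MHC class I, were the 2 called. Psmb8 had 1406 and 1377 at bone passages 3 and 6, against 271.1 in parental cells, and Psmb9 had 328 and 257 at the bone passages, against 79.0 in parental cells. The class I chain H2-K1, chosen after its values were seen, had 4226 and 4251 at bone passages 3 and 6, against 3855 in parental cells. Of the 8 class II genes tested, 1 was called, H2-Ab1, which was lower and dim at 5.1 and 3.9 at the bone passages, against 26.4 in parental cells.

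Interleukin 1 and NF-kB genes were called in both directions, 2 higher and 2 lower of 20, beside 0.999% and 1.14% of all genes. The alarmin Il33 had 470 and 313 at bone passages 3 and 6, against 69.6 in parental cells. Traf1, an adapter of TNF receptors, had 36.0 and 45.9 at the bone passages, against 2.6 in parental cells. The receptor antagonist Il1rn had 131 and 85.2 at bone passages 3 and 6, against 303.3 in parental cells. Tnfaip2, a TNF-induced gene, had 458 and 686 at the bone passages, against 2815 in parental cells, though 1 of its 2 other probe sets was at 0.09 (log2) at passage 3. Outside the list, the interleukin 18 receptor Il18r1 had 65.5 and 188 at bone passages 3 and 6, against 1.0 in parental cells. Tril, an accessory of toll-like receptors, had 82.6 and 44.1 at the bone passages, against 456.3 in parental cells.

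Myeloid growth factors and neutrophil chemokines were lower as a group. Of 7 tested, 4 were lower and 1 higher in both passages, beside 1.14% and 0.999% of all genes. The list's medians of -1.41 and -1.19 at passages 3 and 6 were the lowest of the 43 pathway lists at both. Cxcl5, which draws neutrophils, had 127 and 112 at bone passages 3 and 6, against 1233 in parental cells, or 8.75-fold and 9.74-fold lower. Granulocyte colony-stimulating factor (Csf3) had 446 and 652 at the bone passages, against 2027 in parental cells. Cxcl1, a chemokine of the same receptor as Cxcl5, had 1807 and 1686 at bone passages 3 and 6, against 4824 in parental cells, with both other probe sets past 2-fold. Granulocyte-macrophage colony-stimulating factor (Csf2) had 17.6 and 47.8 at the bone passages, against 129.5 in parental cells. Cxcl2 was the exception, at 65.7 and 54.0 at bone passages 3 and 6, against 16.3 in parental cells. At liver passages 1 and 3, Cxcl5 had 164 and 136, Csf3 had 497 and 428, and Csf2 had 10.6 and 78.1. Cxcl1 had 3730 and 2151 there and Cxcl2 had 118.5 and 49.3. Each of these genes thus lay on the same side of the shared parental array in the liver sub-line as in bone.

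Other chemokines included 3 lower and 0 higher of 22, beside 1.14% and 0.999% of all genes. Ccl20, a ligand of Ccr6, had 90.8 and 122 at bone passages 3 and 6, against 587.9 in parental cells. Ccl2, which draws monocytes, had 8.9 and 7.6 at the bone passages, against 50.8 in parental cells. Cxcl12, the ligand of Cxcr4, had 17.4 and 9.9 at bone passages 3 and 6, against 56.7 in parental cells. The receptor Cxcr4, often named in bone metastasis, had 27.5 and 9.1 at the bone passages, against 2.6 in parental cells, and was past 2-fold at passage 3 alone.

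Genes that act on osteoclasts overlapped with these factors. Of 13 osteoclast activators and inhibitors, 5 were lower and 1 higher in both passages, and the 5 lower ones were Cxcl5, Csf3, Csf2, Ccl2 and Cxcl1, described above. The 1 that was higher, osteoprotegerin (Tnfrsf11b), had 47.9 and 25.6 at bone passages 3 and 6, against 4.2 in parental cells. Its second probe set was above parental by 0.43 and 0.10 (log2), so this call rests on 1 dim probe set. At liver passages 1 and 3 Tnfrsf11b had 61.8 and 95.2, above both bone values. Macrophage colony-stimulating factor (Csf1) had 492 and 491 at the bone passages, against 708.9 in parental cells. The Notch ligand Jag1 had 362 and 425 at bone passages 3 and 6, against 676.6 in parental cells, and neither was past 2-fold. Tnfsf11, Il11, Il6, Dkk1, Nog, Ibsp and Lox did not reach the filter on any array, and Pthlh, Spp1 and Runx2 were not analysed here.

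Of a bone metastasis signature known from human breast cancer cells, 6 members were tested and 1 was called. Connective tissue growth factor (Ccn2) had 23.6 and 31.3 at bone passages 3 and 6, against 0.9 in parental cells. It was under the filter at passage 3, so this call rests on 1 dim probe set. Of 10 bone matrix and mineralization genes, 1 was called. Fam20c, the Golgi kinase that phosphorylates secreted matrix proteins, had 12.4 and 8.3 at the bone passages, against 111.1 in parental cells, and 80.3 and 95.3 at liver passages 1 and 3. Its other probe set was lower as well, by -1.08 and -1.78 (log2). The plot of list medians shows these lists with the rest.

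**Figure D3:**
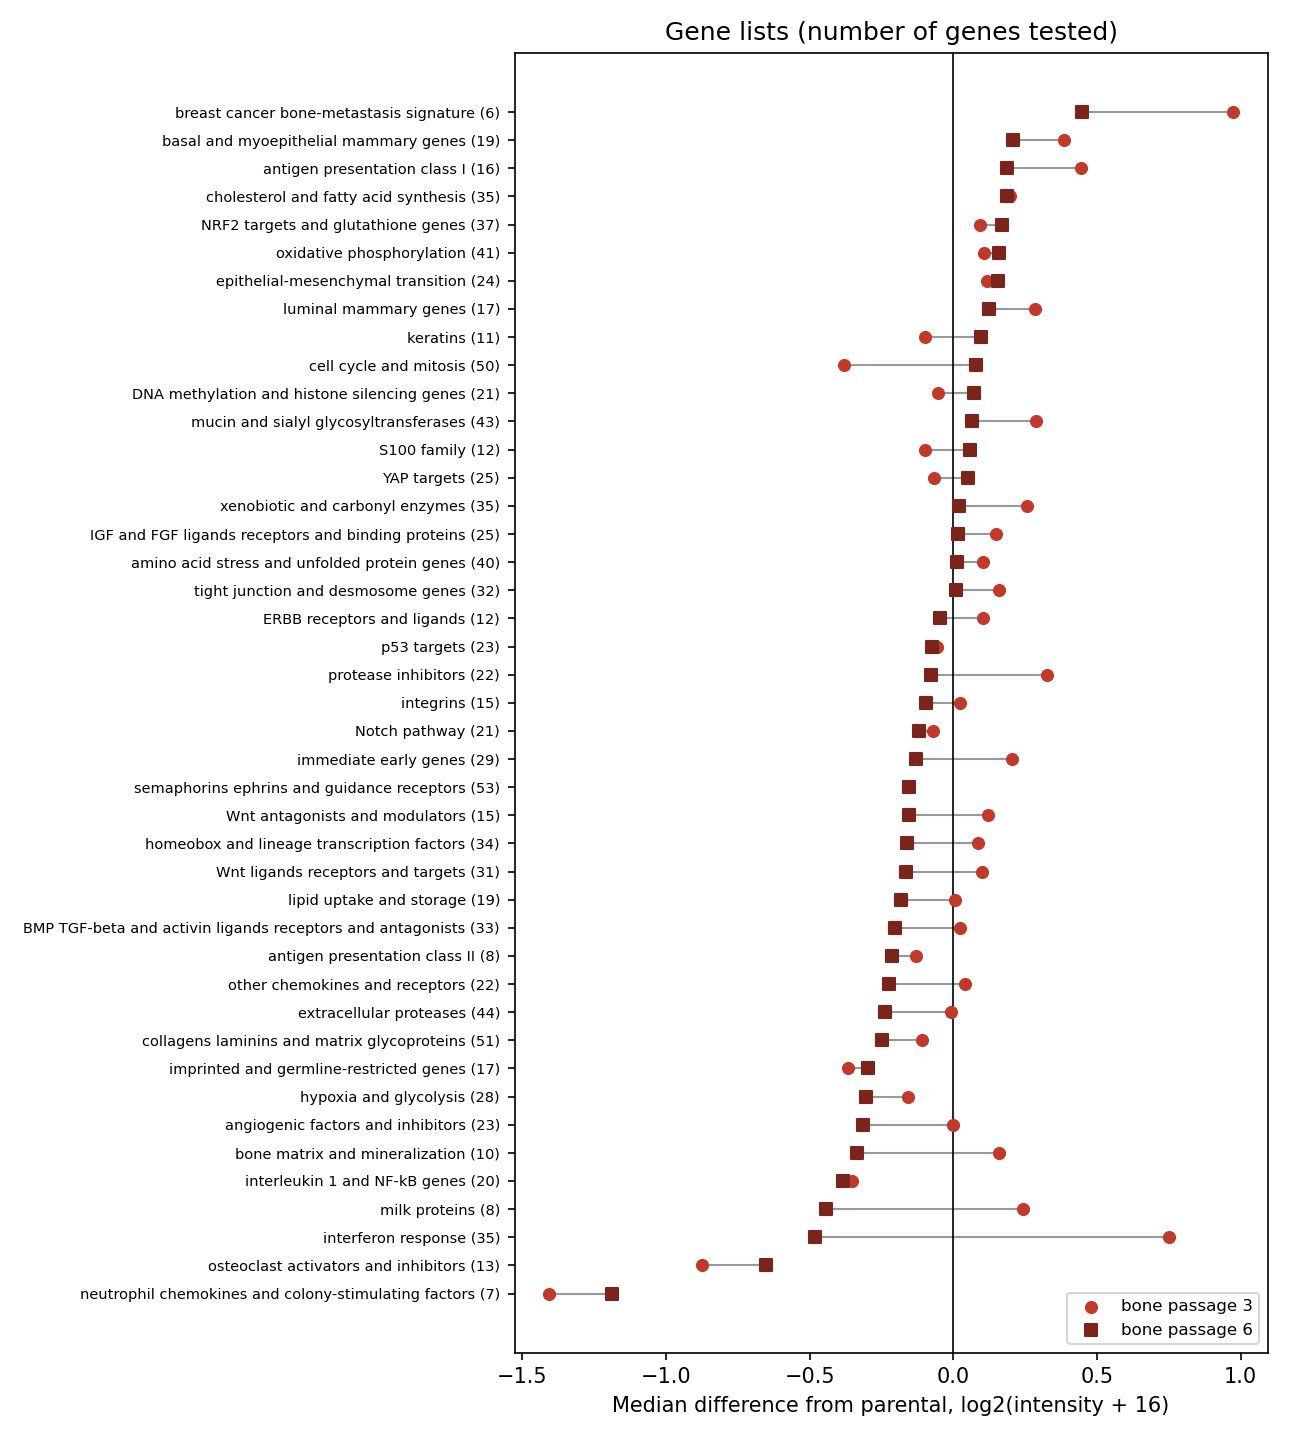
For each of 43 pathway lists, with the number of genes tested in brackets, the points give the median log2 difference from parental at bone passage 3 (circles) and bone passage 6 (squares), joined by a line. Neutrophil chemokines and colony-stimulating factors lie lowest and the breast cancer bone-metastasis signature highest at both passages. The interferon list has the longest line, with 0.75 at passage 3 and -0.48 at passage 6.

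Hypoxia and glycolysis genes were lower in 5 and higher in 1 of 28 cases in both passages, beside 1.14% and 0.999% of all genes. The collagen prolyl hydroxylase P4ha1 had 307 and 301 at bone passages 3 and 6, against 727.4 in parental cells. Its relative P4ha2 had 6.7 and 7.3 at the bone passages, both under the filter, against 33.7 in parental cells. Bnip3, a mitochondrial protein that promotes mitophagy, had 108 and 84.1 at bone passages 3 and 6, against 252.3 in parental cells. Ndrg1, a stress-response gene, had 99.0 and 92.1 at the bone passages, against 230.8 in parental cells. Its 4 other probe sets were at -0.92 to -0.38 at passage 3, short of 2-fold, and at -1.36 to -1.08 at passage 6 (log2). Carbonic anhydrases of the cell surface diverged, since Car12 had 81.4 and 73.8 at bone passages 3 and 6, against 16.9 in parental cells. Car9, named here because it completes the count, had 131 and 109 at the bone passages, against 283.9 in parental cells. Enzymes of the glycolytic chain itself did not reach 2-fold in both passages, with Pgk1, chosen after its values were seen, at 5463 and 6107 at the bone passages against 6099 in parental cells.

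The promoter windows of P4ha1, P4ha2 and Bnip3, which moved together, are shown up to the start because each holds ACGTG, the core letters of the hypoxia response element, in capitals on either strand (CACGT on the minus strand).
P4ha1, chr10:59323046-59323295, plus strand: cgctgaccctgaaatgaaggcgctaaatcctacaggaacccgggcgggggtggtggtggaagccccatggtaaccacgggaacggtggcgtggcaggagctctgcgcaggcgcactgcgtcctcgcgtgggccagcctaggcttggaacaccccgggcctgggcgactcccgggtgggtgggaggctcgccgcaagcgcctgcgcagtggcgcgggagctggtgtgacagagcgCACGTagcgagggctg
P4ha2, chr11:54100674-54100923, plus strand: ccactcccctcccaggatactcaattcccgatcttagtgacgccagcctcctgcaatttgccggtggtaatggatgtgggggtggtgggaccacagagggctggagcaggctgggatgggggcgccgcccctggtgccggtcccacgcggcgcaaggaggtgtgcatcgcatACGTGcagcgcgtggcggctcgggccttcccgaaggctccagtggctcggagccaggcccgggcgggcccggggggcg
Bnip3, chr7:138909507-138909756, minus strand: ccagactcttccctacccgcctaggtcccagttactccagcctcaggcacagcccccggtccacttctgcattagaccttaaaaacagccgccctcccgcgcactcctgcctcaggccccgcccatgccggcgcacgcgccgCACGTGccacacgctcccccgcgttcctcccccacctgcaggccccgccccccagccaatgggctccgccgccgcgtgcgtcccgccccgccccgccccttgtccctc
In Bnip3 both strands match at 1 place. ACGTG stood in the windows of 17 of 27 tested hypoxia genes with a promoter, in all 4 of the lower ones with a window, in 14.9% of the windows of higher genes and 21.1% of those of lower genes, against 25.3% of all windows. A match of letters is not a binding site.

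By the smaller of its 2 differences, the gene with the largest decrease was Rhox5, an X-linked homeobox gene of the reproductive tract that many tumour lines express. It had 63 and 126 at bone passages 3 and 6, against 2810 in parental cells, or 35.8-fold and 19.9-fold lower. Liver passages 1 and 3 had 1662 and 3731, on either side of parental. The long noncoding RNA Xist, which silences 1 X chromosome in female cells, had 20.8 and 40.5 at bone passages 3 and 6, against 224.8 in parental cells, and its second probe set was lower by -2.38 and -2.21 (log2). The liver sub-line had 48.6 and 31.7 at passages 1 and 3. The imprinted zinc finger gene Plagl1 had 12.7 and 15.3 at the bone passages, against 47.7 in parental cells, but its second probe set went the other way at passage 3, at 0.71 (log2). These 3 were the called members of 17 imprinted and germline-restricted genes, of which 15 lay below parental in both passages. Of all 12609 genes, 4752 did.

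Marcks, a substrate of protein kinase C that links membrane and actin, had the largest decrease of all tested genes at passage 6. Its intensities were 332 and 0.4 at bone passages 3 and 6, against 1804 in parental cells, and 648 and 841 at liver passages 1 and 3. The 5 other probe sets that passed the filter were lower by -2.84 to -0.41 at passage 3 and by -6.28 to -1.92 at passage 6 (log2). Signal of the gene was thus present at passage 3 and close to 0 at passage 6. No other named gene fell so far between the bone passages.

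Pard3b and Pard6g, members of the PAR polarity complex families, were the 2 called of 32 tight junction and desmosome genes, both lower. In that list 13 genes lay above parental in both passages and 5 below, and its medians were 0.16 and 0.01 (log2) at bone passages 3 and 6. Pard3b had 5.7 and 2.2 at the bone passages, against 107.4 in parental cells, with all 3 probe sets past 2-fold, and 112.8 and 78.2 at liver passages 1 and 3. Pard6g had 30.6 and 26.8 at bone passages 3 and 6, against 98.5 in parental cells, with a second probe set at -0.15 and -0.57 (log2). Myosin light chain kinase (Mylk) had 23.2 and 22.4 at the bone passages, against 73.6 in parental cells, with a second probe set at -0.67 and -0.68 (log2). No keratin among 11 tested and no gene among 24 of the epithelial-mesenchymal transition was called in both passages.

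The remaining genes with large decreases held several roles. Fxyd6, a regulator of the sodium pump, had 9.5 and 0.8 at bone passages 3 and 6, against 179.1 in parental cells. Ppp2r2c, a regulatory subunit of protein phosphatase PP2A, had 31.0 and 2.4 at the bone passages, against 231.1 in parental cells, and the phosphatase Ppm1m had 2.2 and 8.9 at the bone passages, against 104.0 in parental cells. The LIM-only factor Lmo1 had 34.5 and 24 at bone passages 3 and 6, against 286.1 in parental cells. Surfactant protein D (Sftpd), a secreted collectin, had 60.2 and 26.2 at the bone passages, against 310.6 in parental cells. Uchl1, a deubiquitinase of neurons and many tumours, had 6.8 and 1.3 at bone passages 3 and 6, against 84.3 in parental cells. The deubiquitinase Usp17la had 16.2 and 18.4 at the bone passages, against 123.3 in parental cells. Sel1l3 had 33.0 and 13.9 at bone passages 3 and 6, against 200.3 in parental cells. Jcad, a cell junction protein, had 37.7 and 15.8 at the bone passages, against 201.7 in parental cells. The membrane protein gene Ms4a6b had 26.6 and 13.2 at bone passages 3 and 6, against 156.1 in parental cells.

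Granule protease genes appeared among the lower genes as neighbours. Granzyme E (Gzme) had 87.1 and 34.7 at bone passages 3 and 6, against 473.8 in parental cells. Mcpt8, named as a mast cell protease, had 55.6 and 48.6 at the bone passages, against 279.3 in parental cells. At liver passages 1 and 3 Gzme had 364 and 1126 and Mcpt8 had 181 and 492. They are neighbours among the tested genes of chromosome 14 in the RefSeq table of GRCm38.p6, and near-identical granzyme copies lie there too, so a probe set named Gzme may read more than 1 gene. In all, 7 pairs of neighbours were called lower together, among them P4ha2 with Csf2 and Serpinf1 with Serpinf2, and 5 pairs were called higher together, among them Slpi with Matn4. Pairs can share a gene, as Tcstv1 with Gm20767 and Gm20767 with AF067061 do among the lower ones. The share of such pairs over all tested neighbours was not worked out, so these counts are a description only.

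Between the bone passages themselves, 45 genes (0.357%) were at least 2-fold higher and 261 (2.07%) at least 2-fold lower at passage 6 than at passage 3. The passage 6 array was dimmer at its low end, with 86.6% of tested genes at the filter, against 91.4% at passage 3. The median of passage 6 minus passage 3 was -0.044 (log2) over all genes. It was 0.006 over the 8025 genes with a mean log2 value at least that of an intensity of 100. The part of dim genes in the uneven counts was not tested. Of the 126 genes higher in both passages, 89 were within 1.5-fold between passages, 12 were at least 2-fold lower at passage 6 and 6 at least 2-fold higher. Of the 144 lower in both, 111 were within 1.5-fold and 11 at least 2-fold lower at passage 6. Ecrg4, Cytip, Slc15a3, Trim47 and Psmb8 were nearly level between passages, at -0.08 to 0.04 (log2, passage 6 minus passage 3). Muc15, Clca3a2 and Apod stepped down by -1.86, -1.89 and -1.87 (log2), and Il18r1 stepped up by 1.32.

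Interferon response genes were the list in which the passages parted most. At passage 3, 10 of 35 were past 2-fold higher and 0 lower, beside 2.43% and 1.93% of all genes. At passage 6, 1 was higher and 7 were lower, beside 1.47% and 3.17% of all genes. The list's median was 0.75 at passage 3 and -0.48 at passage 6. Usp18, which removes the ubiquitin-like protein Isg15, had 387 and 32.3 at bone passages 3 and 6, against 125.2 in parental cells. Ifit1, an antiviral RNA-binding protein, had 207 and 17.6 at the bone passages, against 57.1 in parental cells, and the GTPase Gbp3, outside the naming rule and added to complete the 6 genes that crossed, had 114 and 13.8 at bone passages 3 and 6, against 48.7 in parental cells. The 3 others that crossed are outside the list. Egr2, a zinc finger factor, had 1021 and 223 at the bone passages, against 468.7 in parental cells. The matrix protein gene Matn2 had 293 and 42.4 at bone passages 3 and 6, against 126.2 in parental cells, and the lectin-like receptor gene Klrb1a had 118 and 6.8 at the bone passages, against 42.4 in parental cells. Lgals3bp alone of the list was called higher in both passages.

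Several lists held no gene called in both passages, and with 0.999% of all genes called higher and 1.14% lower, a count of 0 in lists of this size is near the background. Among them were 41 oxidative phosphorylation genes, of which 29 lay above parental in both, 45 cytosolic ribosomal proteins, 12 ERBB receptors and ligands, 21 Notch pathway genes and 23 p53 targets. Of 264 zinc finger genes named Zfp, 140 lay below parental in both passages and 43 above it, with medians of -0.09 and -0.22 at passages 3 and 6. Of all 12609 genes, 4752 lay below and 4218 above, with medians of 0.01 and -0.04.

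Differences also followed the chromosomes. Among 8025 brighter genes, those with a mean log2 value at least that of an intensity of 100, the 436 on chromosome 9 had medians of -0.34 and -0.35 at bone passages 3 and 6, against 0.01 and 0.01 over all brighter genes. Of these 436, 356 (81.7%) lay below parental in both passages, beside 35.3% over all. Chromosome 3 (402 genes) had medians of -0.25 and -0.22 at bone passages 3 and 6, and chromosome 12 (296 genes) had -0.19 and -0.18. At liver passages 1 and 3 the medians were -0.02 and 0.02 for chromosome 9, 0.13 and 0.07 for chromosome 3, and -0.22 and -0.26 for chromosome 12.

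The X chromosome (206 genes) had medians of -0.21 and -0.16 at bone passages 3 and 6. Below parental in both were 65.5% of its genes, beside 35.3% over all brighter genes. At liver passages 1 and 3 the medians were 0.33 and 0.41. Chromosome 2 (677 genes) was the one that moved most between the bone passages, with a median of -0.19 for passage 6 minus passage 3. Chromosome 6 (398 genes) lay above parental, at 0.14 and 0.18 at bone passages 3 and 6. Above parental in both were 57.8% of its genes, beside 37.3% over all brighter genes. Such shifts are small beside the 2-fold threshold. Fxyd6, Ppm1m and Sema3b lie on chromosome 9 and Rhox5 and Xist on X. DNA was not measured, and the part of copy number in these shifts was not tested.

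**Figure D4:**
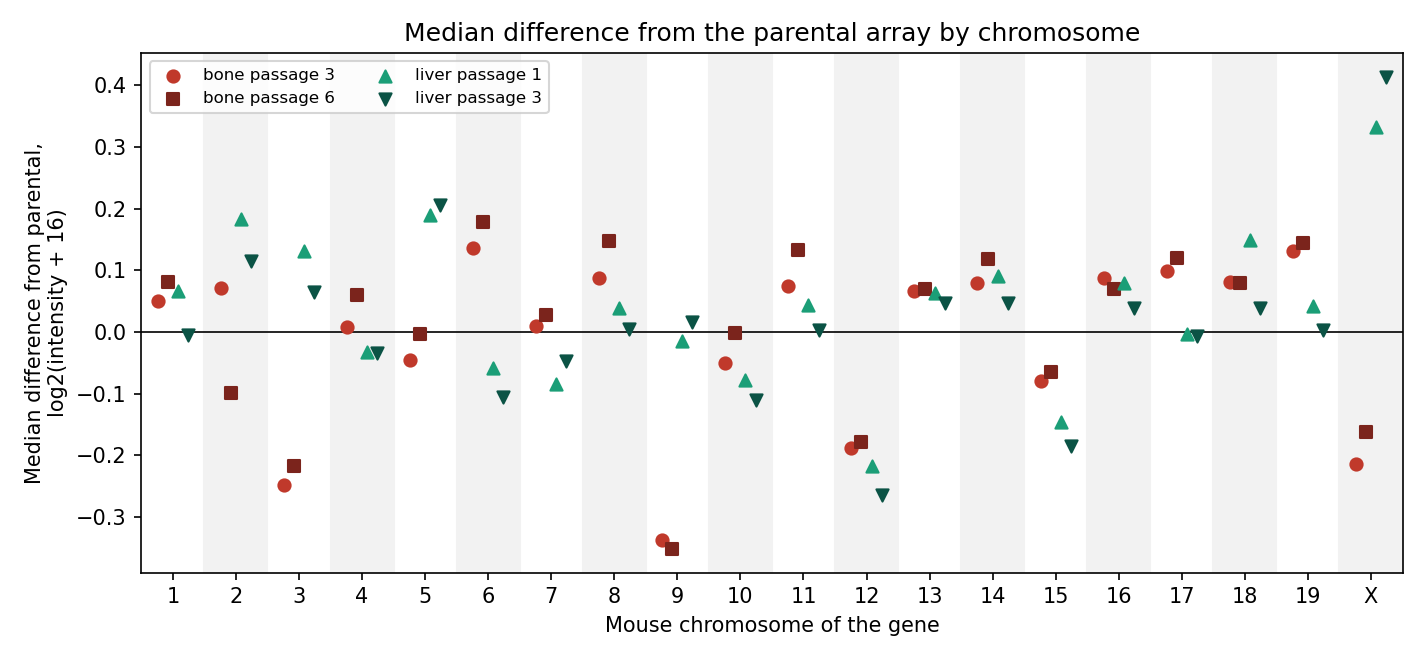
Points give the median log2 difference from the parental array over the brighter genes of each chromosome, for bone passages 3 and 6 and liver passages 1 and 3. Chromosome 9 lies near -0.35 in both bone passages and near 0 in the liver sub-line, and X lies below 0 in bone and above 0 in liver.

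The threshold had no gap around it. Just inside on the higher side lay Cyp2d9, a cytochrome P450 enzyme (1.37 and 1.01, log2, at bone passages 3 and 6), Rims4 (1.01 and 1.29), Klhl5 (1.02 and 1.26), the transporter Flvcr2 (2.26 and 1.02) and the ion channel Asic4 (1.11 and 1.03). A second probe set of Rims4 was below parental at both passages. Just outside lay Papln (1.42 and 0.99), Dhrs11 (1.32 and 0.99), Trav9d-3 (0.986 and 0.998), Nudt4 (1.33 and 0.99) and Mfsd1 (0.98 and 1.18). On the lower side Gen1 (-1.12 and -1), Prkar2b (-1.003 and -1.20), H2-Ab1 (-1.01 and -1.09), Slc27a2 (-1.01 and -1.02) and Asphd2 (-1.15 and -1.01) lay just inside. Mycn (-0.997 and -1.71), Palm (-1.01 and -0.997), Chil1 (-0.996 and -1.94), Sarm1 (-0.995 and -1.69) and Npy (-0.995 and -1.12) lay just outside.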

How the data were processed

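Total RNA of 5 samples, 1 array each, was measured on a whole-genome mouse Affymetrix array, from 5 ug of RNA per the labels' protocols. The authors deposited 1 intensity per probe set for each of 45101 probe sets. RMA is named in the submitters' processing notes, with no version, but the deposited intensities are linear and the mean after trimming 2% at each end is 150 on each array, as a global scaling would leave; which step made them is not stated there. No further normalization was applied. Of the probe sets, 34958 have 1 gene in the platform annotation, 932 several and 9211 none; 34754 were matched to RefSeq (GRCm38.p6), and the 64 controls were dropped. Probe sets whose highest intensity was under the median of all values, 25.1, were filtered out, and the one with the highest mean log2 stood for its gene.

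Calls were differences past 2-fold, with no test, and the counting was checked on simulated data. The reliability of calls for dim genes, or for genes near the 2-fold threshold, was not tested. The tools were Python 3.11.15, numpy 2.4.6 and pandas 2.3.3. The planned design held no test, as each group has 1 array. The rule named up to 25 genes per direction by the smaller of both differences, up to 4 per list and direction, up to 5 that crossed, 5 just inside the threshold, and a set of bone and epithelial genes whatever their values, 117 in all, of which 47 had several probe sets. Clone names were left out. The genes, the 43 pathway lists, 12 marker lists and 20 families were chosen with earlier results of these data known. Alternatives were other pseudocounts, filters, scalings, probe set rules and folds.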

Additional observations from a re-analysis of the deposited data

Results flagged for a closer look

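A few results moved in opposite directions in groups under the same contrast with the parental array; none of these differences was tested, because each group has 1 array. In all, 6 genes crossed between the bone passages, past 2-fold higher than parental at passage 3 and past 2-fold lower at passage 6. Passage 6 minus passage 3 was -3.06 (log2) for Usp18, -2.73 for Ifit1, -2.56 for Klrb1a, -2.40 for Matn2, -2.12 for Gbp3 and -2.12 for Egr2. Usp18, Ifit1 and Gbp3 are on the interferon list. A second probe set gave 1.003 and -0.70 (log2 against parental at bone passages 3 and 6) for Egr2 and 0.78 and -0.74 for Matn2, so the crossing has the same direction there but is smaller.

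Genes of chromosome X lay below parental in both bone passages and above it in both liver passages by their medians. The median over these genes of mean bone minus mean liver was -0.60 (log2), a difference that does not use the parental array.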

How the results depend on the processing

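Counts depended on how dim genes were weighted. Genes higher and lower in both passages were 126 and 144. With a pseudocount of 1 they were 238 and 290, with a pseudocount of 64 they were 47 and 52, and with a 3-fold threshold 47 and 44. For bone passage 3 alone, higher and lower counts were 307 and 243, and were 536 and 494, 122 and 79, and 105 and 63 under these 3 settings. For bone passage 6 alone they were 185 and 400, and were 343 and 775, 77 and 118, and 66 and 103. Dropping the filter or setting it on the mean, centring on the median, quantile normalization and averaging probe sets moved each count by less than 1.5 times. Quantile normalization turned the passage 6 split to 238 higher and 309 lower, a share higher of 43.5% against 31.6%, and kept 125 and 127 of the genes called in both. Of the values of named genes under all alternatives, 546 stayed within the allowance, 202 moved and 0 changed sign. With a pseudocount of 64, 63 of 103 called genes named here stayed past 2-fold in both passages, and with averaged probe sets 93. Chromosomes 9, 3, 12 and X kept medians below parental in both bone passages under every alternative. Leaving out an array was not run, as each group has 1 array. No paired analysis was possible because each group has 1 sample. No detection calls were used, so dim intensities limit the folds of 67 higher and 67 lower genes.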
